A study of Mus musculus with 9 samples.

Results

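The cation-chloride cotransporters are the Slc12 family of membrane carriers, and 5 of their genes were followed here: Slc12a2, Slc12a4, Slc12a5, Slc12a7 and Slc12a9. The members were chosen by gene name, and every RefSeq transcript row of these genes in the deposited count table was used, 17 rows in all, of which 7 were curated and 10 were computer-predicted models. All 5 genes passed the filter on low counts, among 15263 protein-coding genes tested of 18555 with a count. The libraries came from the cytoplasmic fraction of dissociated cortex at postnatal day 0, taken from heterozygous Celf2 KI mice that carry the p.R493H substitution on 1 allele. CELF2 is an RNA-binding protein that shuttles between nucleus and cytoplasm. The 3 conditions, with 3 libraries each, were RNA pulled down with a rabbit antibody against CELF2 (CELF2-KI RIP), RNA pulled down with normal rabbit IgG (IgG RIP) and RNA of the same kind of fraction kept aside before the pulldown (input). All 9 libraries share the KI genotype, and so no value below compares KI with wild-type cortex.

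Slc12 carriers move chloride across the membrane together with sodium or potassium. In neurons the inward carrier NKCC1 and the outward carrier KCC2 set the chloride gradient, and with it the direction of the current that GABA receptors pass. The cortex around birth is known for an early state in which NKCC1 dominates, and KCC2 gains as neurons mature. WNK kinases and their partners SPAK and OSR1 control both kinds of carrier by phosphorylation.

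Slc12a2 encodes NKCC1, Slc12a4 encodes KCC1, Slc12a5 encodes the neuronal carrier KCC2, Slc12a7 encodes KCC4, and Slc12a9 encodes a distant family member known as a cotransporter-interacting protein. On mm10 (RefSeq annotation of GRCm38.p6) Slc12a2 spans chr18:57878512-57946821, Slc12a5 chr2:164960846-164999731 and Slc12a9 chr5:137314558-137340070. Slc12a4 spans chr8:105943590-105966149 and holds the microRNA gene Mir7074, and Slc12a7 spans chr13:73733052-73816754. A count below is the sum over a gene's rows in the count table and does not say which exon or UTR the reads covered. The rows stood for 1 of the 3 transcripts that the reference lists for Slc12a5, 2 of 11 for Slc12a9, 6 of 7 for Slc12a7 and all 4 each for Slc12a2 and Slc12a4, and the other transcripts were not analysed here.

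The libraries held 15919600 to 20052716 estimated counts in CELF2-KI RIP, 17365561 to 28773130 in IgG RIP and 69125700 to 105116427 in input. IgG RIP replicates 1 and 2 stood apart, with 43.5% and 41.5% of their counts on rows that matched no gene, against 21.1% in IgG RIP replicate 3, 11.6% to 12.6% in CELF2-KI RIP and 9.27% to 9.79% in input. Levels are given as CPM (counts scaled to a library of fixed size) from the library's protein-coding counts, scaled by the trimmed mean of M values (TMM). A gene passed the test at a false discovery rate (FDR) under 0.01 in edgeR's quasi-likelihood test, adjusted over all tested genes, and was called when it also differed by at least 2-fold. Because no transcript lengths were used, levels are compared between conditions and never between genes. The 5 genes had 218 to 12223 counts in a library.

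Of the 5 cotransporter genes, 3 passed the test as higher in CELF2-KI RIP than in IgG RIP (Slc12a2, Slc12a5 and Slc12a9), where 22.9% of all tested genes did so. Against input 2 passed as higher (Slc12a2 and Slc12a5), beside 26.8% of all tested genes. None passed as lower in either comparison, where 19.2% and 20.1% of all tested genes did. Between IgG RIP and input none of the 5 passed in edgeR, beside 12% of tested genes higher and 11.2% lower, although Slc12a5 and Slc12a9 had an unadjusted p under 0.05 and both passed in DESeq2. With the 2-fold threshold added, Slc12a2 and Slc12a9 were called over IgG RIP (13.4% of tested genes) and Slc12a2 and Slc12a5 over input (14.6%). Slc12a2 alone was called over both controls, as were 7.58% of tested genes, but of the 5 scalings tried only TMM over coding genes gave that call. The comparisons of CELF2-KI RIP with IgG RIP and with input use the same 3 CELF2-KI RIP libraries.

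As a group the 5 genes had a median difference of 0.59 (log2) from IgG RIP and 0.53 from input, beside -0.06 and 0.19 for all tested genes. Among the 3599 genes with a mean level in the members' own range, 43.4 to 183 CPM, the medians were 0.38 and 0.52, so most of the distance from the all-gene median was shared with genes of like level. Scaling by total counts lowered the median of all genes by 0.37 over IgG RIP and by 0.46 over input. It also changed the share of higher genes among those that passed from 54.4% to 32.4% and from 57.2% to 29.8%. A change of scaling moves all genes together, so each member's distance from the median of all genes is nearly the same under any of them: over IgG RIP Slc12a2 stood 1.06 to 1.07 above it, Slc12a5 0.63 to 0.64 and Slc12a9 1.38 to 1.40 on the log2 scale.

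**Figure D1:**
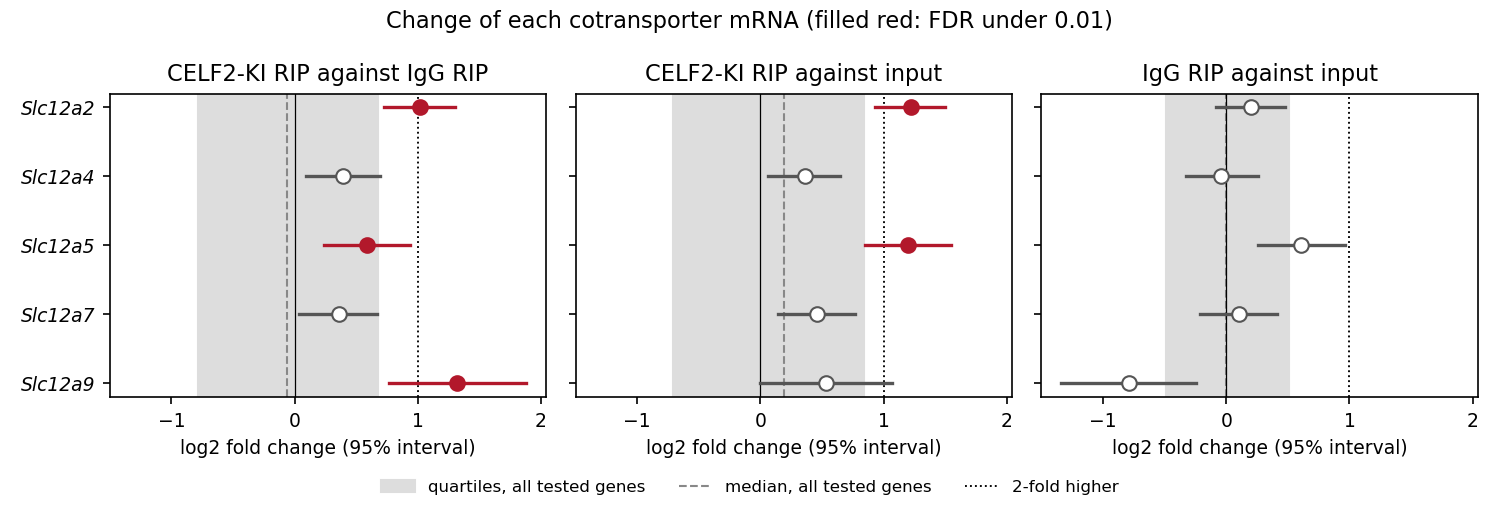
Log2 fold change of the 5 genes (points) with 95% intervals (lines) in the 3 comparisons, over the median and quartiles of all 15263 tested genes. Slc12a2 lies at 1.02 and 1.22 over IgG RIP and input, Slc12a5 at 0.59 and 1.20, and Slc12a9 at 1.32 and 0.53, while Slc12a4 and Slc12a7 lie inside the grey quartile band in both.

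Slc12a2, the inward sodium-potassium-chloride carrier, was higher in CELF2-KI RIP than in either control. It measured 254, 330 and 270 CPM in CELF2-KI RIP against 131, 141 and 151 CPM in IgG RIP, with 119, 135 and 114 CPM in input. Each of the 3 CELF2-KI RIP libraries exceeded all 6 controls, a pattern that 25.2% of tested genes showed, while the IgG RIP and input libraries overlapped. The means were 285 ± 39.9, 141 ± 10.3 and 123 ± 10.8 CPM (SD, n = 3 each). The fold was 2.02 over IgG RIP (log2 1.02, SE 0.13, 95% interval 0.73 to 1.30, edgeR FDR = 9.35e-05) and 2.32 over input (log2 1.22, SE 0.13, FDR = 2.84e-05). IgG RIP and input did not differ beyond their spread (log2 0.20, FDR = 0.229).

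The Slc12a2 difference from IgG RIP sat close to the 2-fold threshold. It passed FDR in all 9 fits that left out 1 library, with log2 values of 0.90 to 1.09, but reached 2-fold in 6 of them. Without CELF2-KI RIP replicate 2 it was 0.90, without input replicate 2 it was 0.91 and without IgG RIP replicate 1 it was 0.96. Other scalings gave 0.64 to 0.95, all below 2-fold, and kept FDR under 0.01. The difference from input was called in 9 of 9 fits without 1 library, but it fell below 2-fold with upper-quartile (0.98), total-count (0.74) or coding-and-noncoding scaling (0.82) and with 2 conditions alone (0.98), with FDR still under 0.01.

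Slc12a5, the neuronal potassium-chloride carrier that moves chloride out, was higher than input by about as much as Slc12a2 but was less far above IgG RIP. Its levels were 156, 203 and 154 CPM in CELF2-KI RIP against 109, 99.4 and 133 CPM in IgG RIP, with 67.5, 71.2 and 85.4 CPM in input. The conditions fell into 3 separate steps with no overlap, highest in CELF2-KI RIP and lowest in input. All 3 CELF2-KI RIP libraries exceeded all 6 controls in 25.2% of tested genes, and the full 3-step pattern was not counted over all genes. The fold over input was 2.30 (log2 1.20, SE 0.16, edgeR FDR = 0.000113), and it was called in 9 of 9 fits without 1 library. It fell below 2-fold, with FDR still under 0.01, with upper-quartile (0.96), total-count (0.73) or coding-and-noncoding scaling (0.80) and with 2 conditions alone (0.96). The fold over IgG RIP was 1.50 (log2 0.59, SE 0.16, 95% interval 0.24 to 0.94, FDR = 0.00931), which passed FDR but not 2-fold.

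That second difference stood at the edge of the FDR threshold. It passed in 2 of 9 fits with 1 library removed, those without IgG RIP replicate 3 (0.71, FDR = 0.00377) and without input replicate 3 (0.60, FDR = 0.0097), and the FDR of the 9 ran up to 0.0369. Under total-count scaling it was 0.21 (FDR = 0.21), and DESeq2 gave 0.52 (FDR = 0.00569). IgG RIP itself lay above input in every library (log2 0.61, SE 0.16, FDR = 0.012, and 0.00728 without CELF2-KI RIP replicate 2), which 27.1% of tested genes also did. Without IgG RIP replicates 1 and 2, the libraries with most counts on unmatched rows, the difference from IgG RIP was 0.25 (FDR = 0.325). That leaves 1 IgG RIP library, assumed to vary like the other conditions, and the part of the unmatched counts in the result was not tested.

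**Figure D2:**
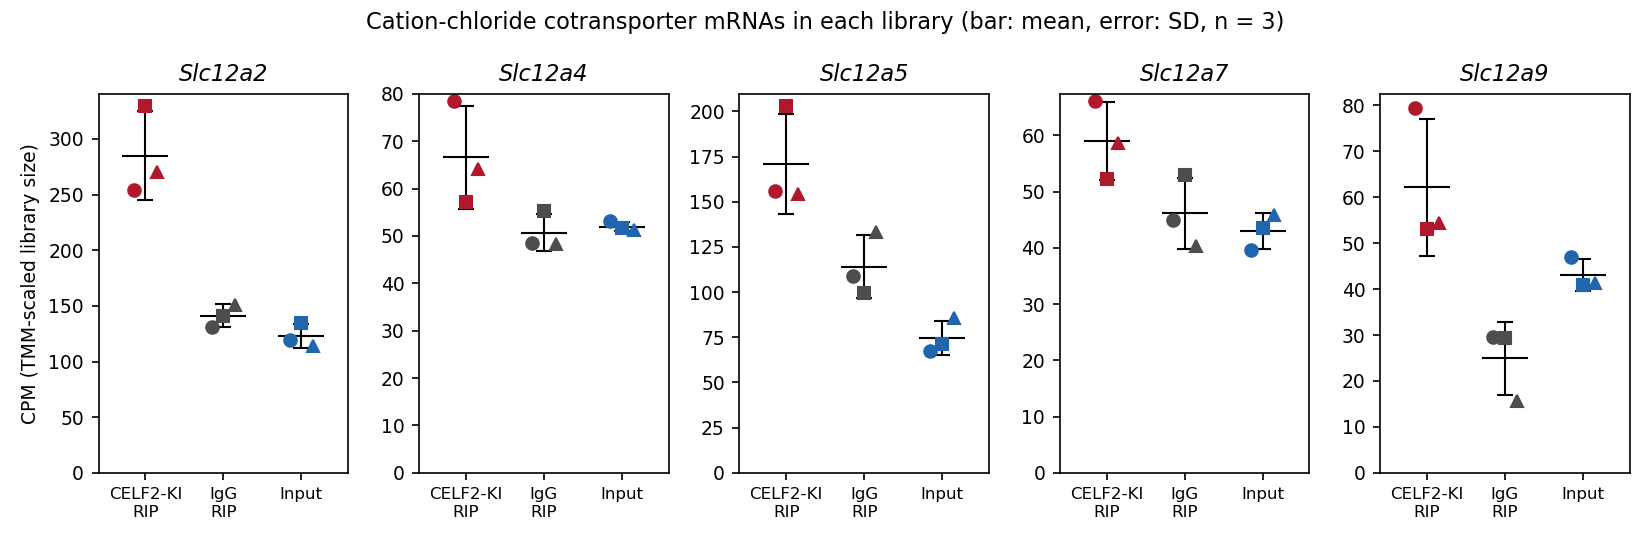
CPM of each gene in the 9 libraries (circle, square and triangle for replicates 1, 2 and 3; horizontal bar, mean; error bar, SD, n = 3), with each vertical axis starting at 0. The CELF2-KI RIP points stand clear of both controls for Slc12a2, step down through IgG RIP to input for Slc12a5, and for Slc12a9 the IgG RIP points at 15.6 to 29.6 CPM lie lowest.

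The balance of the 2 carriers was read within each library as Slc12a5 counts divided by Slc12a2 counts, a ratio that no scaling can move. It is not a ratio of molecules, since lengths differ, and it is compared only between conditions. The ratio was 0.617, 0.617 and 0.571 in the CELF2-KI RIP libraries, 0.838, 0.707 and 0.881 in the IgG RIP libraries, and 0.567, 0.529 and 0.749 in the input libraries. The 3 IgG RIP libraries lay above the 3 CELF2-KI RIP libraries, and input overlapped both. On the log2 scale CELF2-KI RIP was 0.42 below IgG RIP (log2 difference -0.42, 0.747-fold; exact permutation test, two-sided p = 0.1, adjusted p = 0.3 over 3 tests), where 0.1 is the smallest p that 3 libraries against 3 allow. CELF2-KI RIP and input differed by -0.02 (exact p = 1), and IgG RIP and input by 0.41 (exact p = 0.2). Without 1 library the first difference was -0.52 to -0.36. With curated rows only it was -0.80, a setting that drops rows of Slc12a2 alone, since Slc12a5 had a single curated row.

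**Figure D3:**
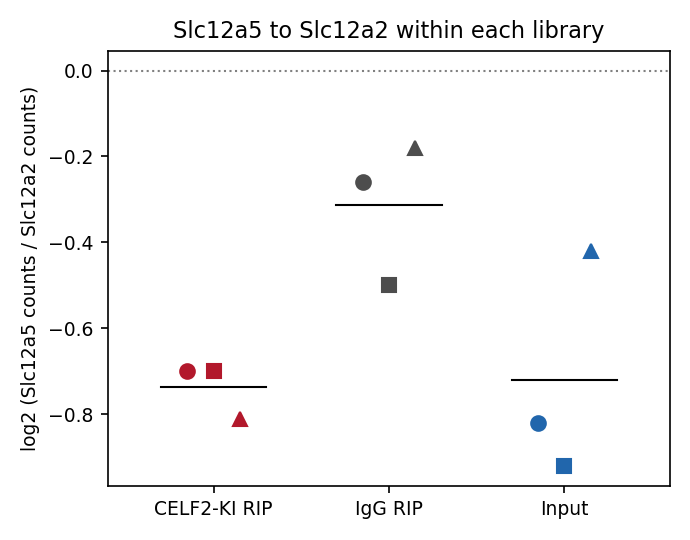
Log2 of Slc12a5 counts over Slc12a2 counts in each library (points; circle, square and triangle for replicates 1, 2 and 3), with the mean of each condition as a line. CELF2-KI RIP lies between -0.81 and -0.70, IgG RIP between -0.50 and -0.18, and input spans -0.92 to -0.42.

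Slc12a9, the distant family member, differed from the other 4 in where its IgG RIP level fell. It measured 79.4, 53.0 and 54.4 CPM in CELF2-KI RIP against 29.6, 29.4 and 15.6 CPM in IgG RIP, with 47.0, 40.9 and 41.3 CPM in input. Every CELF2-KI RIP library was above every input library, as in 42.1% of tested genes, and every IgG RIP library was below every input library, as in 29.4%. The fold over IgG RIP was 2.50 (log2 1.32, SE 0.25, 95% interval 0.77 to 1.88, edgeR FDR = 0.0012), called in 9 of 9 fits without 1 library. Over input it was 1.45-fold (log2 0.53, SE 0.24, FDR = 0.0797), which did not pass and was 0.08 with total-count and 0.16 with coding-and-noncoding scaling. IgG RIP against input gave -0.79 (SE 0.24, FDR = 0.0267). Without IgG RIP replicates 1 and 2, which leaves 1 IgG RIP library, the difference from IgG RIP was 1.89 and that of IgG RIP from input was -1.46. The difference from IgG RIP was thus larger without the 2 IgG RIP libraries with most unmatched counts, as replicate 3 alone held the lowest level. Without IgG RIP replicate 3 the differences were smaller, at 1.07 (FDR = 0.000901) from IgG RIP and -0.54 (FDR = 0.0347) for IgG RIP from input.

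Slc12a4 and Slc12a7, potassium-chloride carriers found in many cell types, had smaller values that did not pass. Slc12a4 measured 78.5, 57.1 and 64.1 CPM in CELF2-KI RIP against 48.6, 55.2 and 48.3 CPM in IgG RIP, with 53.1, 51.6 and 51.3 CPM in input. CELF2-KI RIP lay above the controls without overlap, as in 25.2% of tested genes, but the nearest libraries measured 57.1 and 55.2 CPM. The log2 differences were 0.39 from IgG RIP (FDR = 0.0295) and 0.36 from input (FDR = 0.0394), and total-count scaling turned the latter to -0.10. Slc12a7 measured 66.1, 52.2 and 58.7 CPM in CELF2-KI RIP against 44.9, 53.0 and 40.4 CPM in IgG RIP, with 39.6, 43.5 and 45.9 CPM in input. Its CELF2-KI RIP and IgG RIP libraries overlapped, with log2 differences of 0.36 (95% interval 0.04 to 0.67, FDR = 0.054) and, from input, 0.46 (FDR = 0.0167, and 0.00905 without IgG RIP replicate 3), and total-count scaling turned these to -0.01 and 0.00.

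Of the Slc12 genes outside the members, Slc12a8 gave 0.00 over IgG RIP (FDR = 0.997) and 0.86 over input (FDR = 0.109). The kidney carriers Slc12a1 and Slc12a3 had at most 15 and 7 counts in a library and were not tested.

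The split of a gene's counts between its rows differed among the members in how far it varied. Slc12a5 had a single row in the table, the curated NM_020333.2, so its gene and row counts are the same. Slc12a9 was carried mostly by the curated NM_031406.3, with 91.3% to 94.3% of its counts in CELF2-KI RIP, 77.9% to 95.7% in IgG RIP and 95.0% to 96.9% in input. Slc12a2 was split between the curated NM_009194.3 and the predicted XM_006525732.2. The predicted rows of Slc12a2 held 42.1%, 36.9% and 45.9% of its counts in the CELF2-KI RIP libraries, 63.9%, 57.8% and 41.5% in the IgG RIP libraries, and 47.3%, 44.8% and 53.1% in the input libraries. The 3 conditions overlapped, and the difference of -12.8 percentage points between CELF2-KI RIP and IgG RIP had an exact permutation p of 0.3.

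Slc12a7 had 1 curated row, NM_011390.2, and 5 predicted ones, whose joint share ran from 24.7% to 49.4% in CELF2-KI RIP, from 19.0% to 60.4% in IgG RIP and from 40.2% to 45.0% in input. Of the 12 tests of a predicted share, for 4 genes in 3 comparisons, none had an adjusted exact p under 0.4. With 3 libraries against 3 no exact p can fall under 0.1, so these tests could not have passed and do not decide whether shares differ. That minimum was met by Slc12a4 in IgG RIP (mean 0.00181%) against CELF2-KI RIP (16.5%) and against input (11.9%). Slc12a9 met it in CELF2-KI RIP (6.70%) against input (3.92%). In the test of transcript usage none of 12 member rows passed in any comparison, where 0.505% to 0.718% of all rows with a tested sister row did, and 1, 0 and 1 member rows had an unadjusted p under 0.05.

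**Figure D4:**
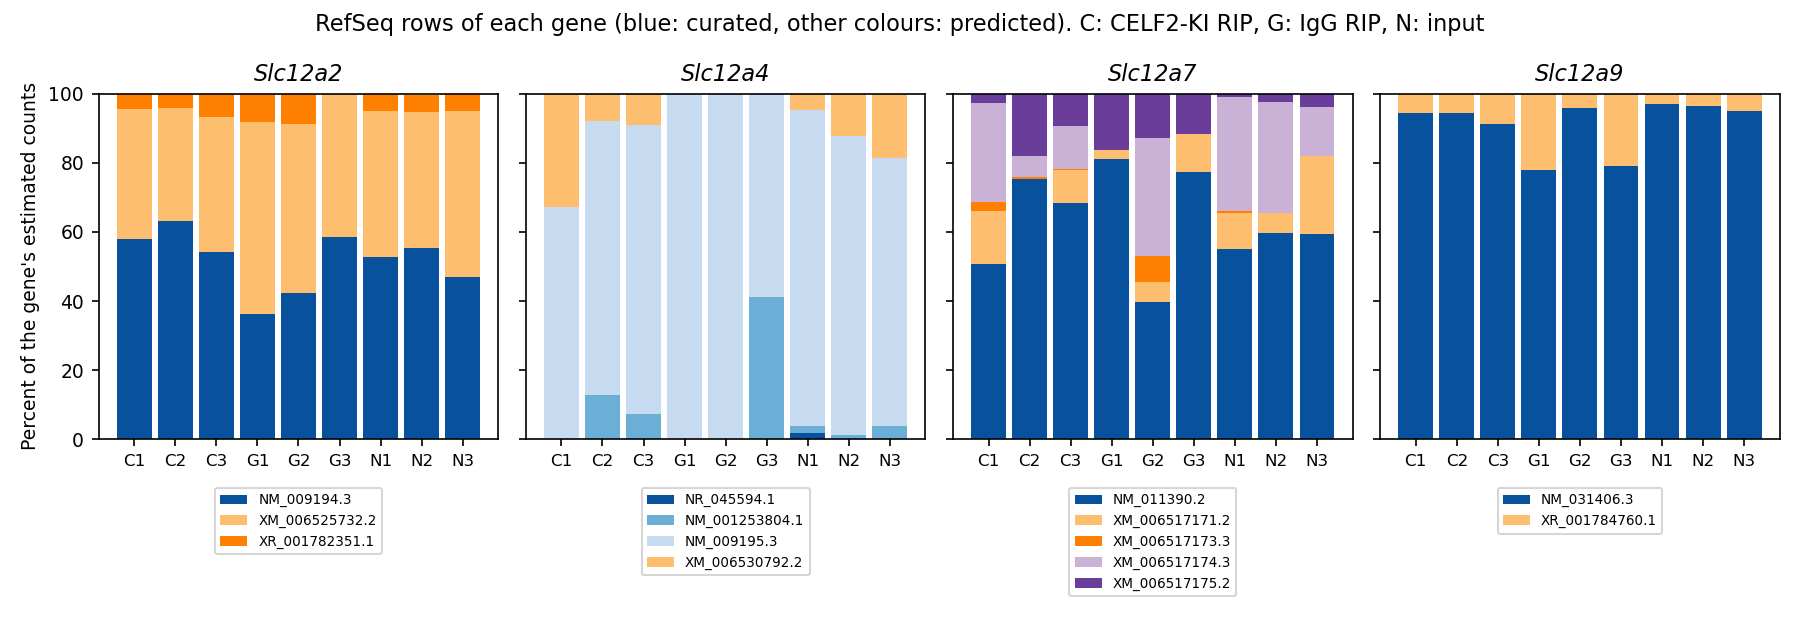
Percent of each gene's estimated counts on each of its RefSeq rows, in the 9 libraries, for the 4 genes with more than 1 row; rows under 1% in every library are left out. Slc12a9 is mostly on its curated row, with 22.1% and 21.0% on the predicted row in IgG RIP replicates 1 and 3, Slc12a2 is shared by a curated and a predicted row, and the predicted row of Slc12a4 is missing from all 3 IgG RIP libraries.

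The predicted Slc12a4 row XM_006530792.2 was the only one of 13 tested member rows to pass over IgG RIP, beside 3.91% of all tested rows, and none passed as lower (3.3%). It had 320, 58.9 and 64.6 counts in CELF2-KI RIP, but at most 0.0189 counts in any IgG RIP library, and 158, 574 and 591 counts in input. The edgeR fit gave log2 11.28 over IgG RIP (SE 1.66, FDR = 0.0087), a size that rests on IgG RIP counts near 0. Set against an assumed floor of 3 counts in each IgG RIP library, not tested, its estimated counts were 45.3-fold higher in CELF2-KI RIP and 31.2-fold higher in input. CELF2-KI RIP replicate 1 carried much of the former, at 23.1 CPM against 3.68 and 4.88 CPM in the other 2 libraries, and without it the value was 18.4-fold. Reads shared by rows are divided by estimation, so the floor does not bound the true difference. A second curated Slc12a4 row had 0, 95.8 and 52.9 counts in CELF2-KI RIP. In IgG RIP replicate 3 that row held 279 counts, 41.3% of the gene, but at most 0.0116 in IgG RIP replicates 1 and 2. The row passed in none of the 9 fits that left out 1 library (FDR 0.0106 to 0.0248), nor without the filter on low counts (FDR = 0.0102) or with the replicate number as a block (FDR = 0.0565). The curated Slc12a4 row NM_009195.3 measured 47.8, 36.5 and 45.1 CPM in CELF2-KI RIP against 47.8, 55.2 and 28.6 CPM in IgG RIP, which overlap (log2 -0.02, FDR = 0.975). When the gene was summed over curated rows only, its difference from IgG RIP was -0.04 (FDR = 0.811) in place of 0.39.

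For Slc12a2 the curated row NM_009194.3 measured 133, 168 and 123 CPM in CELF2-KI RIP against 46.4, 59.3 and 89.4 CPM in IgG RIP, with 75.0, 88.8 and 63.1 CPM in input (log2 1.12 over IgG RIP, SE 0.26, FDR = 0.0255; 1.42 with FDR = 0.00632 without IgG RIP replicate 3). Each of its CELF2-KI RIP libraries exceeded every control, a pattern that was not counted over all rows. The predicted XM_006525732.2 measured 86.5, 86.9 and 88.7 CPM in CELF2-KI RIP, where IgG RIP ran from 63.5 to 71.7 CPM (log2 0.36, SE 0.10, FDR = 0.049), and its difference of 0.48 from input passed without IgG RIP replicate 3 (FDR = 0.00879). These rows were scaled by factors from the row table, which placed the single Slc12a5 row at 0.35 over IgG RIP where the gene table gave 0.59. With the gene table's factors 2 member rows passed over IgG RIP and 2 over input, in place of 1 and 0, a choice made after the data were seen. No member row passed over input (1.49% of all rows higher, 4.63% lower), where 4 had an unadjusted p under 0.05, or between IgG RIP and input (0.928% higher, 1.92% lower), where 3 had.

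The kinases that regulate these carriers did not all lie on the same side. Of 12 genes of the WNK-SPAK/OSR1 list, 4 passed as higher than IgG RIP and 2 as lower, with a median log2 fold change of 0.30, beside 22.9% and 19.2% of all tested genes. Over input 5 passed as higher and 2 as lower, with a median of 0.38, beside 26.8% and 20.1%. Wnk3, a neuronal WNK kinase, measured 119, 141 and 142 CPM in CELF2-KI RIP against 43.9, 67.7 and 69.4 CPM in IgG RIP, with 68.3, 61.5 and 58.6 CPM in input. It was called over both controls (log2 1.15, edgeR FDR = 0.000306, and 1.09, FDR = 0.000349), as was Klhl2, an adaptor that directs WNK kinases to degradation (1.22, FDR = 0.000333, and 1.58, FDR = 5.76e-05). Under the 5 scalings Wnk3 kept FDR under 0.01 but reached 2-fold in 2 over IgG RIP (0.78 to 1.15) and in 1 over input (0.62 to 1.09), and Klhl2 in 2 over IgG RIP (0.83 to 1.22) and in all 5 over input. Wnk1 rose over IgG RIP by 0.76 (FDR = 0.000306) and over input by 0.84 (FDR = 0.000137), the latter passing under 4 of 5 scalings.

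Wnk4 lay on the other side, at 5.44, 3.85 and 5.54 CPM in CELF2-KI RIP against 13.0, 14.8 and 16.1 CPM in IgG RIP, with 9.01, 9.91 and 13.1 CPM in input (log2 -1.57 and -1.11, FDR = 0.000168 and 0.00116). The 2 kinases downstream of WNK differed in sign. Stk39, which encodes SPAK, was -0.78 from IgG RIP (FDR = 0.000701) and -0.39 from input (FDR = 0.0272), and the other 4 scalings took it past FDR against input too (down to -0.85). Oxsr1, which encodes OSR1, was 0.57 from IgG RIP (FDR = 0.0626) and 1.44 from input (FDR = 0.00048). Wnk2 gave -0.36 (FDR = 0.0325) and 0.21 (FDR = 0.173), but it passed as lower than IgG RIP under 3 of 5 scalings (down to -0.73) and turned to -0.25 against input under another. The remaining genes that complete the counts, named after their values were seen, were Cab39 (0.44 over IgG RIP, FDR = 0.00966), Klhl3 (2.93 over input, FDR = 0.00135) and Cab39l (-1.09 from input, FDR = 0.00593), and Cab39 passed under 1 of 5 scalings. Klhl3 was 1.80 over IgG RIP (SE 0.57, FDR = 0.0204) and passed under none of the 5. Its IgG RIP libraries measured 2.13, 15.5 and 6.31 CPM.

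**Figure D5:**
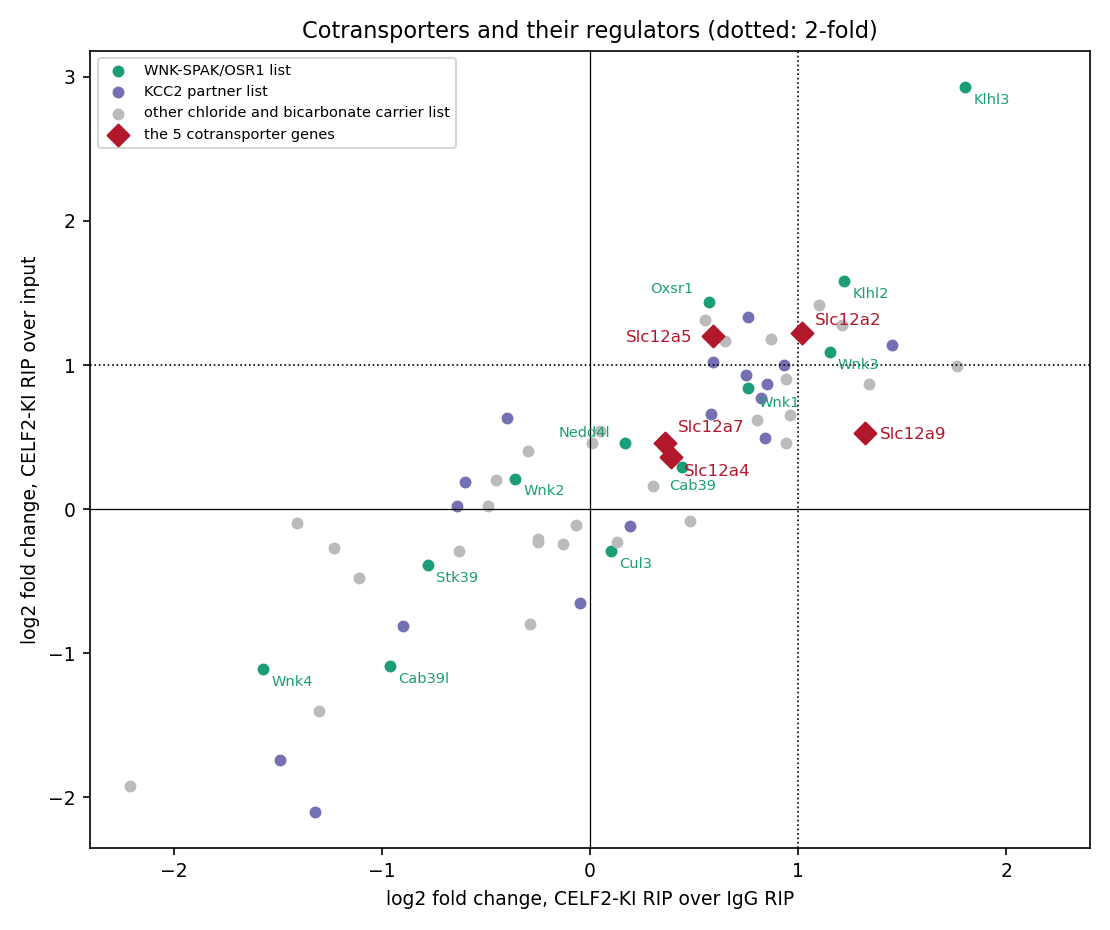
Log2 fold change over IgG RIP (horizontal) and over input (vertical) for the 5 cotransporter genes (red diamonds), the WNK-SPAK/OSR1 list (green, named), the KCC2 partner list (purple) and the list of other chloride and bicarbonate carriers (grey). Both axes use the same CELF2-KI RIP libraries, so the diagonal trend is partly built in. Of the genes with a name on the plot, Slc12a2, Wnk3, Klhl2 and Klhl3 are more than 2-fold higher on both axes, but Klhl3 did not pass over IgG RIP. Wnk4 is more than 2-fold lower on both, and Stk39 and Cab39l also lie below 0 on both.

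Of 17 partners and regulators of KCC2, 5 passed as higher than IgG RIP and 4 as lower, shares near the 22.9% and 19.2% of all tested genes, with a median of 0.58. Over input 7 passed as higher and 3 as lower, beside 26.8% and 20.1% of all tested genes. The median was 0.63, beside 0.19 for all tested genes. Nlgn2, an adhesion protein of inhibitory synapses, measured 1400, 1450 and 1380 CPM in CELF2-KI RIP against 530, 578 and 443 CPM in IgG RIP, with 642, 645 and 635 CPM in input, and was called over both (log2 1.45, edgeR FDR = 9.16e-06, and 1.14, FDR = 1.9e-05). Its call over input held under 1 of 5 scalings (0.68 to 1.14), with FDR under 0.01 in all 5. The brain creatine kinase gene Ckb was lower than both, at 176, 90.8 and 116 CPM against 354 to 368 CPM in IgG RIP and 401 to 465 CPM in input (-1.49, FDR = 0.000156, and -1.74, FDR = 5.52e-05). Ppp1ca, a catalytic subunit of protein phosphatase 1, was likewise lower (-1.32, FDR = 0.000672, and -2.10, FDR = 3.55e-05).

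Of 30 other chloride and bicarbonate carriers and channels, 11 passed as higher than IgG RIP and 2 as lower, with a median of 0.03. All tested genes had 22.9% higher and 19.2% lower, with a median of -0.06. Over input 9 passed as higher and 2 as lower, with a median of 0.18. All tested genes had 26.8% higher and 20.1% lower there, with a median of 0.19. The volume-regulated anion channel subunits Lrrc8b (1.76, edgeR FDR = 7.92e-06) and Lrrc8a (1.34, FDR = 1.13e-05), the endosomal chloride-proton exchanger Clcn5 (1.21, FDR = 2.74e-05) and the sodium-bicarbonate cotransporter Slc4a4 (1.10, FDR = 0.000389) were called over IgG RIP. Clcn5 and Slc4a4 were also called over input (1.28 and 1.42), whereas Lrrc8b (0.99) and Lrrc8a (0.87) passed FDR there below 2-fold. All 4 kept FDR under 0.01 over both controls in the 5 scalings, but over IgG RIP 2-fold was reached in 5 by Lrrc8b, in 4 by Lrrc8a (0.96 to 1.34), in 2 by Clcn5 (0.83 to 1.21) and in 2 by Slc4a4 (0.71 to 1.10), and over input in 3 by Clcn5 and in 4 by Slc4a4. Clcn2, a chloride channel, was lower than IgG RIP (-1.11, FDR = 0.00257) and gave -0.48 against input (FDR = 0.102). Over these lists and the other Slc12 genes together, 20 of 61 tested genes (32.8%) passed as higher than IgG RIP and 8 (13.1%) as lower, beside the 22.9% and 19.2% of all tested genes, and total-count scaling raised the lower ones to 15.

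The genes whose levels followed each member most closely over the 9 libraries were picked by Pearson's r of log2 CPM among 9720 genes with a mean of at least 10 CPM. For Slc12a2 they were Fam126a (r = 0.995), Car10 (r = 0.994) and Etnk1 (r = 0.993), and for Slc12a5 they were Pnmal2 (r = 0.982), Purg (r = 0.982) and Klhl36 (r = 0.981). For Slc12a9 they were Aldh3a2 (r = 0.989), Alg11 (r = 0.979) and Zfp260 (r = 0.975). Tyro3 (r = 0.965) came first for Slc12a4 and Cpne1 (r = 0.967) for Slc12a7. These values describe 9 points that share 3 conditions and their library sizes. Among the members themselves r was 0.89 between Slc12a2 and Slc12a5, 0.90 between Slc12a4 and Slc12a7 and 0.20 between Slc12a5 and Slc12a9.

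Markers of the cell types in the lysate moved between the same conditions. Over all tested genes 22.9% passed as higher than IgG RIP and 19.2% as lower, and over input 26.8% and 20.1%. The 8 excitatory neuron markers summed to 1680 to 2290 CPM in CELF2-KI RIP, 913 to 1060 CPM in IgG RIP and 994 to 1160 CPM in input, and 5 of the 8 passed as higher than IgG RIP while 1 passed as lower. The 7 inhibitory neuron markers summed to 597 to 733, 368 to 411 and 555 to 578 CPM, with 4 higher and 1 lower. Of 8 radial glia and astrocyte markers 1 passed as higher and 2 as lower, with sums of 613 to 1060, 698 to 777 and 1150 to 1380 CPM. The 5 erythroid markers all passed as lower than IgG RIP, from 366 to 584 CPM down to 92.7 to 95.0 CPM, and measured 877 to 1140 CPM in input. Over input excitatory neuron markers had 5 higher and 1 lower, and inhibitory neuron markers 4 and 2. Radial glia and astrocyte markers had 0 higher and 3 lower there, and erythroid markers 0 and 4.

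Of the remaining lists, oligodendrocyte lineage markers had 1 higher and 2 lower of 5, with sums of 548 to 655, 546 to 573 and 489 to 557 CPM in CELF2-KI RIP, IgG RIP and input. Microglia markers had 1 higher and 1 lower of 5 tested, with sums of 91.5 to 125, 53.6 to 72.1 and 117 to 152 CPM, and P2ry12 was too low to test. Endothelium markers had 0 higher and 2 lower of 5, with sums of 158 to 229, 147 to 325 and 198 to 309 CPM. Choroid plexus markers had 1 higher and 0 lower of 6, with sums of 65.9 to 116, 76.8 to 186 and 187 to 492 CPM. These counts are against IgG RIP, where 22.9% of all tested genes were higher and 19.2% lower. Over input oligodendrocyte lineage markers had 1 higher and 3 lower, and microglia markers 2 and 3. Endothelium markers had 0 and 2 there, and choroid plexus markers 0 and 1. The part of cell type in the cotransporter results was not tested. Input and pulldowns came from the same kind of lysate, so these sums describe RNA recovered from it and do not count cells.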

How the data were processed

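RNA immunoprecipitation sequencing was done on 9 libraries. Per the labels, rRNA was depleted, directional libraries were made, and reads were checked with FastQC 0.11.9, trimmed with fastp 0.23.4, cleared of rRNA with Ribodetector 0.3.1 and quantified with kallisto 0.51.1. The authors deposited the estimated counts as 1 table with a row per RefSeq transcript. Here 86714 of 107384 rows (80.8%) were matched to genes of the RefSeq table of GRCm38.p6, ignoring the version, and summed and rounded per gene. Rows without a gene stayed out of library sizes and tests. Protein-coding genes that reached 0.5 CPM in 3 libraries or more were scaled by TMM and fitted with edgeR 4.0.16 (R 4.3.3), quasi-likelihood, 3 conditions in 1 model, with Benjamini-Hochberg adjustment. Transcript rows were fitted alike, and usage was tested with diffSpliceDGE. DESeq2 1.42.0 was an alternative. Scripts were tested on simulated data. Reads shared by transcripts of a gene are divided by estimation, which makes rows less certain than genes, and p-values measure the spread between these libraries, whose animals the labels do not name.

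The labels do not say whether libraries of the same number came from the same sample. Same-numbered CELF2-KI RIP and input libraries deviated together over 11532 genes (correlations 0.185, 0.122 and 0.212), and the other conditions gave -0.07 to 0.086. Libraries of different number were not compared, so these values do not settle whether the numbers pair. The main fit and the exact tests used no pairing. Members and gene lists were chosen with earlier results of these data known. Named were the members, the rows with at least 25% of a gene's counts or a passed test, the other Slc12, Wnk, Stk39 and Oxsr1 genes, up to 6 called genes of at least 1 CPM per list with the largest change over IgG RIP, and the closest genes by correlation; some results are not reported here. Alternatives were other scalings, no filter, DESeq2, a replicate block, fits of 2 conditions, curated or version-matched rows, and each library left out. No sequences are printed, since none of the transcripts were among the references used here.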

Additional observations from a re-analysis of the deposited data

How the results depend on the processing

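Slc12a2 passed FDR over IgG RIP and over input, and Slc12a5 over input, under every alternative run, though 2-fold was lost with several scalings. For Slc12a5 over IgG RIP, log2 0.59 fell short of FDR 0.01 with DESeq2 size factors (0.52), upper-quartile (0.32), total-count (0.21) or coding-and-noncoding scaling (0.36), no filter (0.50), 2 conditions alone (0.53), curated (0.45) or version-matched rows (0.46), and without IgG RIP replicates 1 and 2 together (0.25), and without 1 library it was 0.45 to 0.71. For Slc12a5, IgG RIP against input passed with upper-quartile scaling (0.64) and DESeq2 (0.54), and was 0.49 to 0.70 without 1 library. Slc12a9 over IgG RIP was 0.96 with total counts (FDR = 0.0111), and IgG RIP against input passed with DESeq2 (-0.87) and without the IgG RIP pair (-1.46). Slc12a7 over input was 0.35 to 0.54 without 1 library, 0.08 with coding-and-noncoding scaling and 0.00 with total counts. Slc12a9 over input was 0.32 to 0.64 without 1 library.

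Near-zero values changed sign: Slc12a4 over IgG RIP with curated rows (-0.04), Slc12a4 over input with total counts (-0.10) and coding-and-noncoding scaling (-0.02), Slc12a4 in IgG RIP against input with curated (0.27) and version-matched rows (0.03), Slc12a7 over IgG RIP with total counts (-0.01), and Slc12a7 in IgG RIP against input with coding-and-noncoding scaling (-0.07), without the IgG RIP pair (-0.09) and without 1 library (-0.02 to 0.19). The row NM_009195.3 over IgG RIP turned to 0.12 with DESeq2 size factors, 0.01 with no filter and 0.20 with gene-level factors (-0.26 to 0.17 without 1 library), and over input to 0.19 with gene-level factors. NM_011390.2 over IgG RIP was -0.03 with total counts (-0.08 to 0.28 without 1 library), and in IgG RIP against input 0.01 with DESeq2 size factors, 0.15 with total counts and 0.24 with gene-level factors (-0.17 to 0.19). Over input NM_031406.3 was -0.01 with no filter (-0.26 to 0.15) and XM_006530792.2 ran from -0.76 to 1.0 without 1 library. In IgG RIP against input NM_009194.3 was 0.03 with gene-level factors.

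Of the 3 member genes higher than IgG RIP, 1 was left with total counts. Slc12a5 also dropped out under the other settings listed for it above and with the replicate block, and without 1 library 2 to 3 genes passed. In IgG RIP against input 1 was higher with upper-quartile scaling or DESeq2, 0 to 1 without 1 library, and 1 was lower with DESeq2 or without the IgG RIP pair. Member rows that passed over IgG RIP numbered 0 with no filter, 2 with gene-level factors and 0 to 1 without 1 library, and over input 1 with DESeq2 size factors, 2 with gene-level factors and 0 to 1 without 1 library. Listed pathway genes lower than either control numbered 15 with total counts. Those higher in IgG RIP than input, 5, became 3 with DESeq2 size factors, 2 with total counts and 2 to 8 without 1 library, and those lower, 4, became 1 to 5. The Slc12a5 to Slc12a2 difference from IgG RIP was -0.80 with curated and -0.74 with version-matched rows, settings that drop rows of Slc12a2 but not of Slc12a5.

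With replicate number as a block (replicate block), Slc12a5 over IgG RIP was 0.59 with FDR = 0.0145, but the labels do not say that the numbers pair. The block gave NM_009195.3 over IgG RIP 0.01, NM_031406.3 over input -0.01, 0 member rows over IgG RIP, and 2 listed genes higher and 2 lower in IgG RIP than input. It changed no member's call over input, where same-numbered CELF2-KI RIP libraries had the higher correlations. Leaving out the IgG RIP pair and the gene-level factors were chosen after the data were seen. Predicted shares divided by transcript length were not run, for want of lengths. The cause of these changes was not tested. Low counts limit the rows more than the genes, and 3 libraries against 3 cannot give an exact p under 0.1.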
